A study of Homo sapiens with 2 samples.

Results

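WSTF summits on human chromosome 11 in SW620 cells were described: the positions of highest signal in the chromatin immunoprecipitation sequencing (ChIP-seq) peaks that the authors called on that chromosome. They were chosen by their chromosome in the authors' list of called summits, 264 of 2697 (9.79%), the highest count of the 23 chromosomes in the list (1 to 22 and X). Being in the list is itself the measured outcome, so where the summits lie is given as a description with no test. SW620 is an established human colorectal adenocarcinoma line grown from a lymph node metastasis. The series has 2 samples of these cells, both without any treatment, dose or time in their annotation. These are the immunoprecipitate made with an antibody against WSTF and a library whose title lacks the suffix IP, which was put in no group. The list belongs to the whole series and names no sample, and it is read here as peaks of the immunoprecipitate. The series title speaks of WSTF knockdown and the design text of WSTF overexpression in these cells, so the amount of WSTF present is not settled. The construct or reagent behind either is not given. There is 1 list and no replicate list, and the depth behind it is unknown.

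WSTF, encoded by BAZ1B, carries a bromodomain and works with SMARCA5, an ATPase of the ISWI family, in complexes that slide nucleosomes. It is known for roles at replication foci, in the response to DNA damage, where it phosphorylates the histone variant H2AX, and in transcription. Most human genes that are active in many tissues start in CpG islands, stretches where the CpG dinucleotide was kept, and bind general promoter factors there. Olfactory receptor genes, of which chromosome 11 carries many, have promoters poor in CpG and are transcribed in olfactory neurons, 1 receptor in each cell.

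Promoter windows of RefSeq (GRCh38.p14) are shown for 6 genes whose start lay close to a summit and for 1 olfactory receptor gene without one, so that the letters under the summits can be set beside the counts that follow. Each holds 250 bases, from 220 before the start site to 30 from it on, so the start is base 221. Capitals mark matches on either strand to the searched motifs. The GC box, bound by SP and KLF factors, was searched as GGGCGG. The motif of ETS factors was CCGGAAG. The CCAAT box and the TATA box (TATAAA) were searched as spelled. Those of NRF1 (GCGCATGC), YY1 (ATGGCGGC), CREB (TGACGTCA) and ZBTB33 (CTCGCGAG) have 8 letters each. The E-box of MYC and USF was CACGTG. AP-1 was searched as TGANTCA, and the Wnt pathway factors TCF and LEF as ATCAAAG. NADSYN1 makes the last step of NAD synthesis, and its summit lay 98 bp before the start with a score of 9.97. FIBP encodes a protein that binds acidic fibroblast growth factor (17 bp before, 6.20). POLA2 encodes a subunit of DNA polymerase alpha (43 bp before, 5.14). CDK2AP2 encodes a CDK2-associated protein (33 bp before, 4.38). These 4 lie in the 65 to 75 Mb stretch. ZNF195, a zinc finger gene (21 bp before, 9.51), and TMEM41B, a lipid scramblase gene of the endoplasmic reticulum (200 bp before, 9.25), lie on the p arm. OR5M10 is the olfactory receptor gene whose promoter had the median CpG content.
NADSYN1, chr11:71452983-71453232, plus strand: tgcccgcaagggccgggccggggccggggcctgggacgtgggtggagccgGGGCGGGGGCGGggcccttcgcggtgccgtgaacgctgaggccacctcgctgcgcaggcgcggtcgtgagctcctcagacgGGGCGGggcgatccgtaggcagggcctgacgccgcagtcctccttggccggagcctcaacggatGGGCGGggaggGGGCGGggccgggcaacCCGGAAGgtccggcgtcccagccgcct
FIBP, chr11:65888442-65888691, minus strand: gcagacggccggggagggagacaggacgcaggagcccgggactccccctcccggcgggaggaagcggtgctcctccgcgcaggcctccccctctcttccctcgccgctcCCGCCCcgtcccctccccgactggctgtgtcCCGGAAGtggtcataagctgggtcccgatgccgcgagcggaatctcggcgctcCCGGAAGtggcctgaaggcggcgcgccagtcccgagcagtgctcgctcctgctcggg
POLA2, chr11:65261742-65261991, plus strand: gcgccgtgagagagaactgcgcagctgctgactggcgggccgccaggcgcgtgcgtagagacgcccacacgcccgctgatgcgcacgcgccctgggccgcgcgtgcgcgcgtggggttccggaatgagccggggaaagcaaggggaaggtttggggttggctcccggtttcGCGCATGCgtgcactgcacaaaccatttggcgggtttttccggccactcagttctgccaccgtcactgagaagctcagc
CDK2AP2, chr11:67508133-67508382, minus strand: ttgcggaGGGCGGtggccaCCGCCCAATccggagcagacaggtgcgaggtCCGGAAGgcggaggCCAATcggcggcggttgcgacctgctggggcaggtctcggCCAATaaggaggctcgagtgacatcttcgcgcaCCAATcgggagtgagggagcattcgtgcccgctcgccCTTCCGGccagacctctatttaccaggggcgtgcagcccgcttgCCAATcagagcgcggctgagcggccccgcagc
ZNF195, chr11:3379117-3379366, minus strand: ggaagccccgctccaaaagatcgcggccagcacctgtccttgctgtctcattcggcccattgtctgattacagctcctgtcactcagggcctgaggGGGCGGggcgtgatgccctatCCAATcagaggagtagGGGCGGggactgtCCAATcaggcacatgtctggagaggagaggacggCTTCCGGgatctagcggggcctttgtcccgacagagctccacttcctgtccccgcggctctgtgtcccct
TMEM41B, chr11:9314564-9314813, minus strand: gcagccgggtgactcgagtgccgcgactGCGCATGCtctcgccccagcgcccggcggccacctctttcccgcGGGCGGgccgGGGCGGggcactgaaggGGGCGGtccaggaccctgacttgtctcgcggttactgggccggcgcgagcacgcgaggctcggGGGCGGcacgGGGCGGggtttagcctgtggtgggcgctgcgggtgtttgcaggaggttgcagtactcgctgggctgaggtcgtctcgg
OR5M10, chr11:56577692-56577941, minus strand: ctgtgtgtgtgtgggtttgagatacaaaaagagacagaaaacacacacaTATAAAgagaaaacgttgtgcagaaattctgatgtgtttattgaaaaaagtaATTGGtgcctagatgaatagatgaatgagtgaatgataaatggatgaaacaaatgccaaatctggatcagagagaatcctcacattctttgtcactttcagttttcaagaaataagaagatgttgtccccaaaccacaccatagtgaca
The NADSYN1 window was 78.4% G or C and held 5 GC boxes and 1 ETS motif. TMEM41B also held 5 GC boxes, with 1 NRF1 motif, at 73.6% G or C. CDK2AP2 held 5 CCAAT boxes, 2 GC boxes and 2 ETS motifs. The OR5M10 window was 35.6% G or C and held 1 CCAAT box and 1 TATA box, and no GC box.

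The summits were first placed along the chromosome. They were densest between 60 and 75 Mb on the long arm and at the tip of the short arm. The q arm held 175 of the 264 summits (66.3%, 95% interval 60.2 to 72.0) and 851 of the 1297 protein-coding genes (65.6%). The p arm held 89 summits and 446 coding genes. The arms were divided at 52.5 Mb, the middle of the gene-free stretch around the centromere. A coding gene was counted as marked when a summit lay within 1 kb of either of its outer ends. On chromosome 11, 228 of 1297 coding genes were marked (17.6%, 15.54 to 19.8). The same share over all chromosomes was 11.7%, and over the others it was 11.3%. By arm, 68 of 446 genes on p (15.2%, 12.04 to 18.9) and 160 of 851 on q (18.8%, 16.2 to 21.6) were marked. All intervals are exact Clopper-Pearson 95% intervals for counting error only, and neighbouring genes are not independent.

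The p arm ran from RIC8A, a chaperone gene for G protein subunits (208769, score 4.72), to PTPRJ, a receptor tyrosine phosphatase gene (48013670). The q arm ran from CLP1, an RNA 5′-kinase gene (57657542), to NCAPD3 and VPS26B (134224562, 3.02). NCAPD3 encodes a condensin subunit and VPS26B a retromer subunit. In stretches of 5 Mb, the highest counts were 61 summits at 65 to 70 Mb, 36 at 0 to 5 Mb, 33 at 60 to 65 Mb, 19 at 70 to 75 Mb and 17 at 115 to 120 Mb. No summit lay in the 20 to 25, 25 to 30 and 50 to 55 Mb stretches, which hold 12, 11 and 2 coding genes. High shares of marked genes were also seen in 10 to 15 and 95 to 100 Mb. At 10 to 15 Mb, 10 of 28 genes were marked (35.7%, 18.6 to 55.9), with BMAL1, a core gene of the circadian clock, at the highest score (5.75). At 95 to 100 Mb, 5 of 12 were marked (41.7%, 15.2 to 72.3), with MTMR2, a phosphoinositide phosphatase gene, at 6.20. Gene counts this small leave intervals that overlap those of most other stretches.

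**Figure D1:**
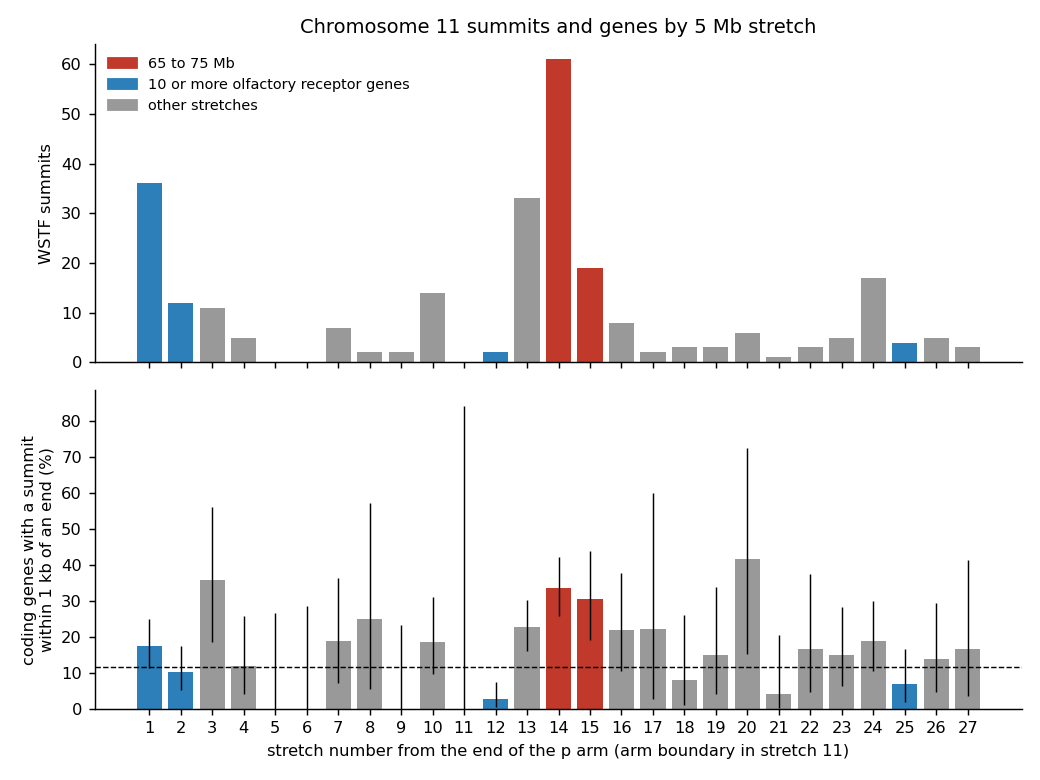
Summits (bars) and the percent of coding genes that were marked, with its exact 95% interval, by 5 Mb stretch of chromosome 11, numbered from the end of the p arm. The count is highest at 65 to 70 Mb (stretch 14, 61 summits, 33.6% of 140 genes). The 55 to 60 Mb stretch (number 12) has 2 summits for 113 genes.

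The longest run of chromosome without a summit was 12.9 Mb, from NAV2, a neuronal guidance gene (19712487), to EIF3M, a translation initiation subunit gene (32583823). It holds 34 coding genes and no olfactory receptor gene. The next was the 9.64 Mb from PTPRJ across the centromere to CLP1, with 78 coding genes, 57 of them olfactory receptor genes. The third, of 7.13 Mb, ran from TRAF6, a ubiquitin ligase gene of innate immune signalling (36510173), to 43644224. The distance between neighbouring summits had a median of 112429 bp over the chromosome and 67504 bp at 65 to 75 Mb. Unbroken runs of marked genes were seen too. The longest held 7 neighbours over 188.4 kb at 62.4 Mb: AHNAK, EEF1G, TUT1, MTA2, EML3, ROM1 and B3GAT3. EEF1G encodes a translation elongation subunit, TUT1 a terminal uridylyltransferase for U6 snRNA, and MTA2 a subunit of the NuRD remodelling complex. A run of 5 on the p arm held ARFGAP2, PACSIN3, DDB2, ACP2 and NR1H3. DDB2 recognises ultraviolet damage in DNA and NR1H3 is the oxysterol receptor LXR alpha.

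The 65 to 75 Mb stretch was picked as gene-dense with these summits already known. Coding genes per Mb were 28 at 65 to 70 Mb and 11.8 at 70 to 75 Mb, beside 29.2 at 60 to 65 Mb. In stretches rich in olfactory receptor genes, 0 to 5 Mb had 25.4 and 5 to 10 Mb 21.8. The other such stretches, 55 to 60 and 120 to 125 Mb, had 22.6 and 11.6. The 65 to 75 Mb stretch held 80 summits (30.3% of those on the chromosome) and 199 coding genes (15.3%). Of these genes 65 were marked (32.7%, 26.2 to 39.7). Over the rest of chromosome 11 the count was 163 of 1098 (14.8%, 12.8 to 17.1), or 163 of 930 (17.5%, 15.1 to 20.1) without olfactory receptor genes. At 60 to 65 Mb, the 5 Mb stretch with most coding genes, 33 of 146 were marked (22.6%, 16.1 to 30.25). The densest megabase was 65 to 66 Mb, with 26 summits and 22 of 49 coding genes marked (44.9%). The summit scores did not stand higher there: the median was 4.04 in the stretch and 4.07 over the rest of the chromosome. The score, taken to be −log10 of the q-value of each peak, ranks how firmly a peak was called.

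Of the best-scored summits of the stretch, those of DPF2, MUS81 and KAT5 stood at genes of chromatin and DNA repair. Others, as at NPAS4 (341.9), ZNRD2 (10.6) and NADSYN1 (9.97), did not. DPF2, a subunit of BAF remodelling complexes, had the second highest score of the chromosome (13.2), 267 bp before its start at 65333852. MUS81, a nuclease that cuts branched DNA at stalled forks, scored 11.9 at 65860461. KAT5, the TIP60 acetyltransferase, scored 9.12 at 65712107. RNASEH2C, a subunit of the ribonuclease that removes ribonucleotides from DNA, overlaps KAT5 and had its own summit 8562 bp away (4.57). POLA2, a replication gene, scored 5.14, and CDCA5, which encodes the cohesin protector sororin, shared a summit of 2.66 with ZFPL1. Genes of RNA processing formed another row: SART1 (4.04) and SF3B2 (3.93), which encode spliceosome proteins, and RBM14 (3.44), a paraspeckle protein gene. Genes of these kinds were also found unmarked in the stretch, among them RAD9A and RBM4B.

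Other marked genes of the stretch have varied roles. RELA, the p65 subunit of NF-kappaB, had a summit beside each outer end (8.29 and 8.27). ZNRD2, a small zinc ribbon gene, scored 10.6 and headed the largest group of neighbouring summits on the chromosome, 4 over 7136 bp at ZNRD2, FAM89B and EHBP1L1 (10.6, 2.16, 2.87 and 2.57). SNX15, a sorting nexin gene, and SAC3D1 shared a summit of 10.5 at 65041015. It lay at the 3′ end of SNX15 and 82 bp after the start of SAC3D1. The summit 7 bp before the start of SNX15 scored 3.19. CAPN1, a calpain gene, scored 8.08. LAMTOR1, which anchors mTORC1 to lysosomes, scored 6.90. PPP1CA, a catalytic subunit of protein phosphatase 1, scored 4.67, and CHKA, the choline kinase gene, had a pair of 4.92 and 3.06 at 1 end. Between 70 and 71 Mb, 4 of 5 coding genes were marked: FADD, the death receptor adaptor (3.36), PPFIA1, a liprin gene (3.63), CTTN, the cortactin gene (5.92), and SHANK2, a synaptic scaffold gene (3.02). NADSYN1, the next marked gene along the chromosome, scored 9.97. Low scores were present too: MRPL21 and IGHMBP2 shared a summit of 2.13, and MRGPRF had 1.53.

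Olfactory receptor genes stood at the other end. None of the 168 on chromosome 11 was marked (0 of 168, exact upper bound 2.17%), beside 228 of the 1129 other coding genes (20.2%, 17.9 to 22.7). Clusters of at least 5 such genes with gaps of at most 500 kb numbered 7, and all 7 held 0 summits. The largest lay at 4367263 to 6200186, spanning 1.83 Mb with 55 receptor genes among 70 coding genes. The next, at 55343201 to 56989843, held 46 receptor genes among 47, and the one at 123753580 to 124571374 held 22 among 24. The 4 stretches of 5 Mb rich in these genes (0 to 5, 5 to 10, 55 to 60 and 120 to 125 Mb) held 54 summits (20.5% of the chromosome's). There, 40 of 407 coding genes were marked (9.83%, 7.11 to 13.1), all among the 251 that are not receptor genes (15.9%, 11.6 to 21.1). That interval overlaps the one for all other genes of the chromosome outside 65 to 75 Mb and lies below that of the 65 to 75 Mb stretch.

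The receptor-rich stretches also hold marked genes of other kinds. In the 0 to 5 Mb stretch, TMEM80 had a pair of summits 1095 bp apart (8.32 and 3.46). The higher lay 892 bp from its end and 475 bp after a start of DEAF1, the lower 26 bp after a start of TMEM80. POLR2L, a subunit gene shared by the RNA polymerases, shared a summit with TSPAN4 (5.27). TSSC4, a spliceosome assembly gene, scored 6.63. In the 5 to 10 Mb stretch, ILK, the integrin-linked kinase, and RRP8, a ribosomal RNA methyltransferase, shared a summit of 3.72, and RPL27A, a ribosomal protein gene, had one of 6.27 at its 3′ end. In the 55 to 60 Mb stretch 3 genes were marked: CLP1 (4.67), and MED19, a Mediator subunit, with TMX2, a thioredoxin-related gene, at one summit (4.63). At 120 to 125 Mb the highest score was at HSPA8, the constitutive HSC70 chaperone (4.63).

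Most chromosome 11 summits lay at gene ends, and at the end where transcription starts. Of the 264, 203 were within 1 kb of the outer start or end of any annotated gene (76.9%, 71.3 to 81.8), beside 80.9% (79.3 to 82.4) on the other chromosomes. A further 39 (14.8%) lay inside a coding gene, 2 inside another gene and 20 (7.58%, 4.69 to 11.5) between genes, the last beside 4.23% (3.47 to 5.11) elsewhere. The q arm had 145 of 175 at a boundary (82.9%, 76.4 to 88.1) and the p arm 58 of 89 (65.2%, 54.3 to 74.96). Counting also promoter starts that lie inside a gene's outer limits, the shares were 85.7% (79.6 to 90.5) on q and 77.5% (67.5 to 85.7) on p, with overlapping intervals.

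With the strand known for 727 coding genes of at least 5 kb, 157 had a summit within 1 kb of the 5′ end (21.6%, 18.7 to 24.8) and 10 of the 3′ end (1.38%, 0.66 to 2.52). For PIDD1, EML3, PLCB3, SNX15 and RELA both ends were marked. The 3′ end alone was marked in RPL27A, TAF6L, BAD, ZPR1 and a predicted gene, LOC124902805. Except at RELA and RPL27A, each summit at a 3′ end also lay within 1 kb of the start site of another gene. Within 1 kb of a RefSeq start site lay 181 summits (68.6%, 62.6 to 74.1), beside 72.9% (71.1 to 74.7) on the other chromosomes. The 181 stood at a median of 29 bp before the start (quartiles 155 before to 97 after), 105 before and 76 after. The median distance either way was 129 bp (55 to 234).

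**Figure D2:**
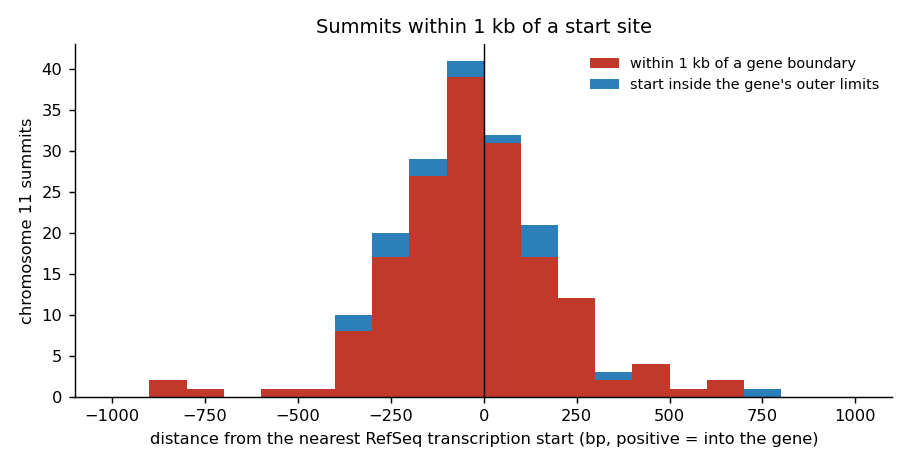
Distance of the 181 chromosome 11 summits within 1 kb of a RefSeq start site from that site, in bp along the direction of transcription. The bars gather around the start, with a median of 29 bp before it.

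Some summits stood where neighbouring genes meet. At 44 of the 264 (16.7%) at least 2 coding genes had an end within 1 kb. In 28 of these the genes lie on opposite strands with both outer 5′ ends within 1 kb, the arrangement of a bidirectional promoter. Neither share was counted on the other chromosomes, so these counts are description and set nothing apart as particular to chromosome 11. C11orf71 and RBM7, which encodes a subunit of the exosome targeting complex, had starts 155 bp apart and a summit of 7.36. HPS5, a lysosome biogenesis gene, and GTF2H1, a subunit of the TFIIH factor, lay 393 bp apart with a summit of 6.22. CWC15, a spliceosome gene, and KDM4D, a histone demethylase gene, were 153 bp apart (5.20). NPAT, a coactivator of histone genes, and ATM, the kinase that signals DNA double-strand breaks, were 429 bp apart (4.68). At PLCB3, BAD and GPR137 a single summit of 7.66 lay within 1 kb of 3 genes. At such a summit the gene it belongs to cannot be told apart by position. Summits at 2 or more coding genes had a median score of 4.04, and those at 1 coding gene 4.35.

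Marked genes had promoters rich in CpG. The ratio of observed to expected CpG in the RefSeq window of 300 bases (250 before the start to 50 after) had a median of 0.89 in the 191 marked genes with a window, 0.72 in 627 unmarked genes other than olfactory receptors, and 0.11 in 135 olfactory receptor genes. Over all 15811 coding promoters it was 0.76. A ratio of at least 0.6, a usual mark of a CpG island, was reached by 88.5% of marked, 58.5% of unmarked and 1.48% of olfactory receptor promoters. G and C made up a median of 67.3%, 61.3% and 37.0% of these windows. The window used was the first listed for each gene and was not centred on a summit. Of the 181 summits within 1 kb of a start site, 100 lay inside the window of that start. The CpG and motif counts therefore describe the promoters of marked genes, not the bases under each summit.

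Among chromosome 11 genes with a ratio of at least 0.6, 169 of 538 were marked (31.4%, 27.5 to 35.5), beside 17% over all chromosomes. Below 0.6, 22 of 415 were marked (5.30%, 3.35 to 7.92), beside 3.22%. Without olfactory receptor genes the latter count was 22 of 282 (7.80%, 4.95 to 11.6). In the 65 to 75 Mb stretch the CpG-rich promoters were marked in 48 of 106 genes (45.3%, 35.6 to 55.3). Elsewhere on the chromosome they were marked in 121 of 432 (28.01%, 23.8 to 32.5), so the stretch held the higher share also among CpG-rich promoters. No CpG-rich comparison was possible for olfactory receptor genes, of which 2 of 135 reached the ratio.

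**Figure D3:**
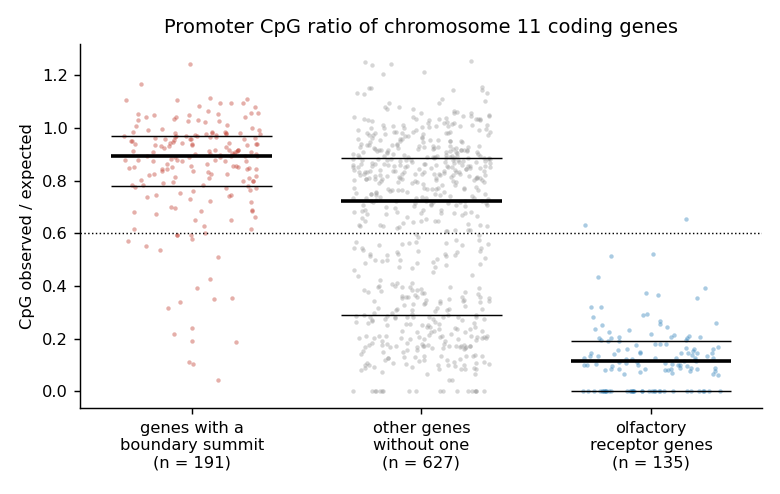
Ratio of observed to expected CpG in promoter windows of 300 bases for marked chromosome 11 coding genes, for unmarked ones, and for olfactory receptor genes. Medians are 0.89, 0.72 and 0.11.

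Motifs were counted in the same windows on both strands, some of which overlap CpG content by their letters. The GC box GGGCGG was found in 78.0% of marked promoters (71.5 to 83.7), 54.2% of unmarked ones, 0.741% of olfactory receptor promoters and 58.5% of all. The ETS motif CCGGAAG was found in 25.7% (19.6 to 32.5), 15.9%, 0.741% and 14.2%. At marked genes of the 65 to 75 Mb stretch it was in 18 of 52 (34.6%, 21.97 to 49.1). The YY1 motif ATGGCGGC was in 8.90% of marked, 6.70% of unmarked and 4.50% of all promoters. The CREB motif TGACGTCA was in 5.76%, 1.91% and 2.59%, and the NRF1 motif GCGCATGC in 7.33%, 3.51% and 4.26%. The CCAAT box was close in all sets (39.8% marked, 36.7% unmarked, 43.0% olfactory receptor, 36.3% of all). TATAAA ran the other way, in 3.66% of marked, 10.7% of unmarked and 35.6% of olfactory receptor promoters, beside 9.64% of all. The AP-1 motif TGANTCA was in 4.19%, 8.13% and 11.1%, and the E-box CACGTG in 8.38%, 8.77% and 0.741%, of marked, unmarked and olfactory receptor promoters. A match is a run of letters and does not show that a factor bound.

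Away from gene ends lay 61 summits, more than 1 kb from any boundary. Of these, 16 were within 1 kb of a start site inside a gene. They included CELF1, an RNA-binding protein gene (7.23, 198 bp after the start), CEP164, a centriole gene (6.83, 183 bp after), HYLS1, a ciliary gene (6.77, 110 bp after), and SLC67A1, an imprinted transporter gene (4.98, 82 bp before). NPAS4 is also among them. It encodes an activity-dependent transcription factor of neurons, and its summit at 66421794 lay 759 bp after a start and 4913 bp from the nearest end of the gene (66409158 to 66426707). Its score of 341.9 stood far above the 13.2 of the next summit of the chromosome. The highest score on the other chromosomes was 5478.8. No other list was available to show whether the NPAS4 peak recurs. Counting boundaries and starts, 219 summits (82.95%) lay within 1 kb of either and 45 (17.0%) of neither.

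Between CCND1, the cyclin D1 gene, and ANO1, a chloride channel gene, lay 6 summits, 5 of them more than 1 kb from any boundary. A pair 390 bp apart stood 2639 and 2249 bp from CCND1 (69638517, 5.04, and 69638907, 3.18). One lay inside FGF3, a fibroblast growth factor gene (2.30), 702 bp from the boundary of a noncoding gene, and one 17349 bp from ANO1 (4.37). CCND1 and ANO1 themselves were not marked.

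At the imprinted 11p15.5 region, where parent-specific marks set which copy is transcribed, 6 summits lay around IGF2 and TH. The highest stood between genes, 7336 bp from TH (2179151, 8.59), with another 1997 bp farther on (2181148, 5.27). TH encodes tyrosine hydroxylase, the first enzyme of catecholamine synthesis, and held a summit of 3.16. IGF2, a fetal growth factor, held one of 4.04. In the same region CDKN1C, a cyclin-dependent kinase inhibitor, scored 2.31 and PHLDA2, a placental growth gene, 7.26. A summit of 4.30 inside KCNQ1, a potassium channel gene, lay 475 bp from a boundary of its antisense transcript KCNQ1OT1, which controls the cluster. Among the remaining remote summits, one of 7.48 lay inside the predicted gene LOC124902693 and one of 5.32 inside HSD17B12, a steroid and fatty acid reductase gene. At 12 boundary summits no coding gene ended within 1 kb; one of these stood 177 bp from MALAT1, an abundant nuclear noncoding RNA (4.48).

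Gene groups were then counted over 353 coding genes of chromosome 11 in 15 partly overlapping lists, written from general knowledge with earlier results of these data known. Of these genes 86 were marked, beside 17.6% of all coding genes of the chromosome and 11.7% over all chromosomes. No test of the lists was made, and the counts set nothing apart as particular to a list.

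Splicing and RNA processing had 13 of 25 genes marked (52.0%, 31.3 to 72.2), with a median score of 3.93 beside 4.26 over all 228 marked genes. PRPF19, a spliceosome ubiquitin ligase (6.22), RBM7 (7.36), HNRNPUL2 (3.62), SF3B2 and SART1 were among them. Members of this list that act elsewhere were NAA40, which acetylates histones H4 and H2A at their N terminus, and FIBP. DNA damage response, replication and repair had 12 of 25 (48%, 27.8 to 68.7, median score 4.62): KAT5, MUS81, ATM, DDB2, H2AX (2.83), POLA2 and RNASEH2C, and also NPAT and APIP, a methionine salvage enzyme, whose best known roles lie elsewhere. Chromatin genes had 9 of 24 (37.5%, 18.8 to 59.4, median 5.20). KMT2A, the MLL1 histone methyltransferase, scored 8.58, PRDM10, a zinc finger regulator, 5.32, MTA2 5.01, EMSY, a BRCA2-binding protein gene, 4.55 and MEN1, the menin tumour suppressor, 3.19. RSF1, whose product partners SMARCA5 in another ISWI complex, had no summit at its outer ends but one inside the gene (4.04), just before a RefSeq start site of RSF1 and 271 bp from an outer end of AAMDC.

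Ribosomal proteins and translation had 6 of 15 marked (40.0%, 16.3 to 67.7), among them EIF4G2 (5.13), RPS3 (4.85) and RPLP2 (4.04). The transcription machinery had 6 of 17 (35.3%, 14.2 to 61.7), among them GTF2H1, POLR2L, MED19, CTR9 of the PAF1 complex (3.799) and TAF6L (5.15). The TAF6L summit stood at the gene's 3′ end, 549 bp before the start of TMEM179B. Growth signalling and cancer genes had 15 of 42 (35.7%, 21.6 to 52.0), with GAB2, a docking protein (5.06), CBL, a ubiquitin ligase of growth factor receptors (4.30), TRAF6 (3.40) and BIRC3, an inhibitor of apoptosis (3.595). Ubiquitin and chaperone genes had 10 of 34 (29.4%, 15.1 to 47.5), and trafficking genes 9 of 33 (27.3%, 13.3 to 45.5). Among the latter were SNX19 at 10.9, SNX15 and EHD1, an endosomal recycling gene, at 6.61. SNX15 had 10.5 at its 3′ end, by the start of SAC3D1, and 3.19 at its own start. Mitochondrial genes had 5 of 34 (14.7%, 4.95 to 31.1): SLC25A22, PC, NDUFV1, MRPL21 and FDX1 (6.74).

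The intervals of the neuronal, blood and intestinal lists include the share of all coding genes of the chromosome. Neuronal receptor, channel and synaptic genes had 4 of 39 (10.3%, 2.87 to 24.2): CHRM4, a muscarinic receptor (3.53), SYT7, SHANK2 and CADM1 (2.31). Blood and immune genes had 2 of 28 (7.14%, 0.877 to 23.5), RAG1, a recombinase of lymphocytes (3.40, shared with TRAF6), and IL10RA, an interleukin receptor (4.92). The list of mucin genes and genes of the intestinal epithelium, the tissue of origin of SW620, had 1 of 21 marked (4.76%, 0.12 to 23.8). This was the mucin gene MUC5B (4.04), whose summit lay 732 bp outside the end of the gene at 1262172. The imprinted 11p15.5 genes had 3 of 14 (21.4%, 4.66 to 50.8). None of 10 matrix metalloproteinase genes (upper bound 30.9%) and none of 11 keratin-associated protein genes (28.5%) were marked, list sizes at which a share near that of the whole chromosome would not be told apart from 0.

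**Figure D4:**
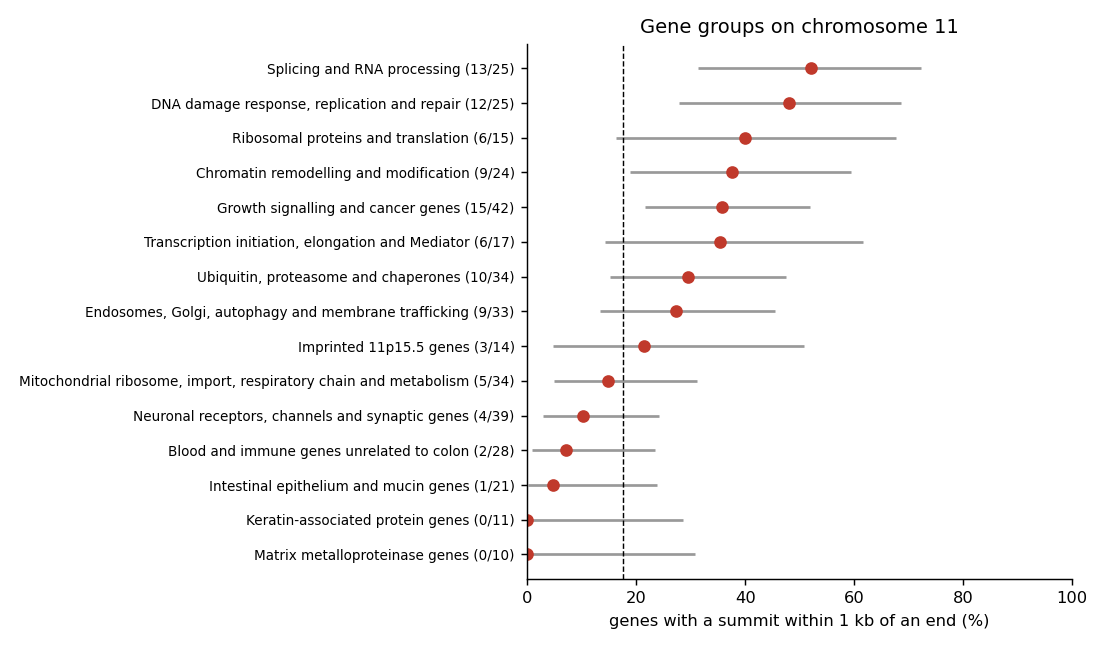
Percent of the chromosome 11 coding genes of each list that were marked (points) with exact 95% intervals (lines), ordered by share. Splicing and RNA processing is highest (13 of 25), matrix metalloproteinase and keratin-associated protein genes are at 0.

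Scores differed little by position. The median over chromosome 11 was 4.04 (quartiles 3.02 to 5.27), beside 3.72 (2.76 to 5.01) on the other chromosomes. It was 4.26 on the p arm and 4.04 on the q arm, 4.30 at boundaries, 3.76 inside coding genes and 3.78 between genes, with quartiles that overlap. A score of at least 10 was reached by 7 summits (2.65%, 1.07 to 5.39), beside 35 of 2433 (1.44%, 1.004 to 1.995) on the other chromosomes. The 7 were those of NPAS4, DPF2, MUS81, SNX19, ZNRD2, SNX15 with SAC3D1, and TRIM44 (10.2), a gene for a tripartite motif protein. Among the next were NADSYN1, ZNF195, TMEM41B, RASGRP2 (9.17), KAT5, the intergenic summit by TH, and KMT2A. RASGRP2 encodes an exchange factor for RAP1 in platelets. The lowest score, 1.37, was that of a summit 24797 bp from HIPK3, a nuclear kinase gene. The next, 1.49, was at UBXN1, a ubiquitin-binding cofactor gene.

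**Figure D5:**
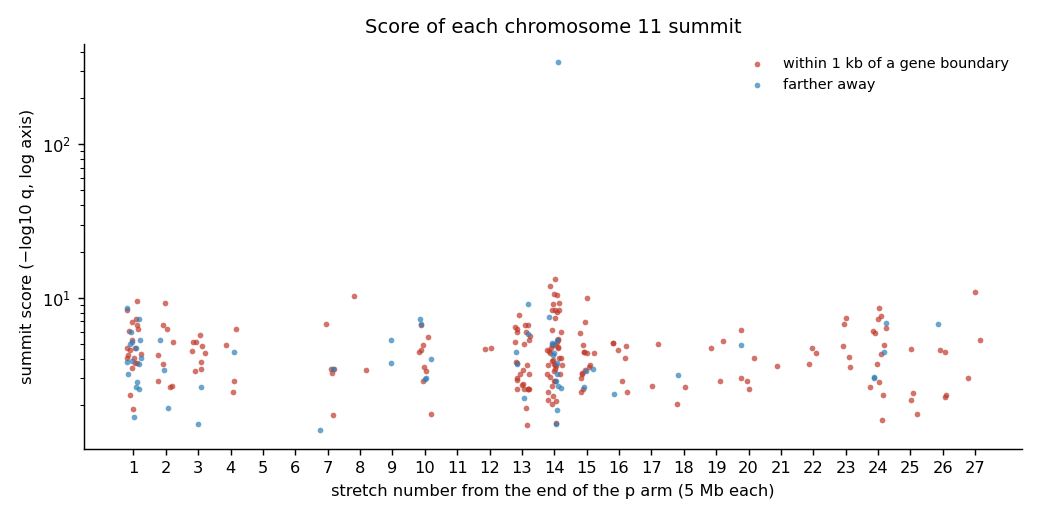
Score (−log10 q as read here, log axis) of each of the 264 summits, by stretch of chromosome 11, numbered from the end of the p arm. Within a stretch, points are spread sideways at random and do not show position. NPAS4 at 341.9 stands apart, and the other summits lie between 1.37 and 13.2.

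Summits came close together at few places. With another summit within 10 kb were 30 of 264 (11.4%, 7.80 to 15.8), beside 10.5% on the other chromosomes, and they formed 14 groups, 7 of them at 65 to 75 Mb. Besides those at ZNRD2, TMEM80, CHKA, KAT5 and CCND1, pairs stood at DUSP8, a MAP kinase phosphatase gene (7.26 and 3.76), at FADS1 and FADS2, the fatty acid desaturase genes (2.75 and 2.52), at TUT1 and MTA2 (5.31 and 5.01), and at LAMTOR1 and ANAPC15, an anaphase-promoting complex gene (6.90 and 3.53). The pair by CD248, an endothelial and stromal marker gene, was 456 bp apart (4.98 and 2.66).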

How the data were processed

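Per the labels' protocols, SW620 chromatin was fixed with formaldehyde, sheared by sonication and immunoprecipitated. The submitters' processing notes name Trimmomatic 0.39, Bowtie2 2.4.4, MACS2 2.2.7.1 and build hg38. The design text states that MACS2 ran against input DNA. Pooling of replicates before the call is not stated. The deposited file gives 1 base per peak and a score, read as −log10 of the caller's q-value because its lowest value, 1.31, lies just above 1.30, the value for a q of 0.05. It is the authors' value and was used to rank and describe summits in this list. The library without the IP suffix is not analysed here.

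Positions were compared with RefSeq genes of GRCh38.p14 on the chromosomes of the list, 58415 genes after 679 entries on alternate or unplaced scaffolds were left out (9 on chromosome 11, 4 of them coding). An outer start or end of a gene within 1 kb counts as its boundary. A gene belongs to the stretch of its midpoint. RefSeq promoter windows matched 953 of the 1297 chromosome 11 coding genes, 191 of the 228 marked ones, and the first listed window was used. Sequences were printed where the start is the gene's outer 5′ end, no other gene overlaps the window and the summit lies in it, by score. Motifs are exact matches on both strands. Older symbols were matched for FXC1 and SLC22A18. The distance calculation was checked on simulated positions with known distances. Python 3.11.15, pandas 2.3.3 and scipy 1.17.1 were used.

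Members and lists were chosen with earlier results of these data known. The genes named were the nearest to the 15 highest scores, those at the top summit of each stretch, list members with a summit, genes at neighbouring summits, those by the 5 highest remote summits, marked genes at 65 to 75 Mb, and those at the first, last and lowest summits. Runs of neighbours, shared ends, internal starts, 5′ against 3′ ends, the CpG ratio of 0.6, noncoding neighbours and the counts around CCND1 and IGF2 were chosen after values were seen. A gene that the naming rule selects is not reported here. With 1 list no test between samples was possible. The design planned no test, and intervals are for counting error only. Alternative windows, score minimums, arm limits, cluster definitions and neighbour distances were tried.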

Additional observations from a re-analysis of the deposited data

How the results depend on the processing

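Of 30 alternative values, 14 stayed within the interval of the reported value and 16 moved. For shares this was the counting interval, and for the score an interval around the median. Counts of neighbouring summits had no interval, so any different count was bound to be labelled as moved. No paired analysis was possible because there is 1 summit list. The share of chromosome 11 summits at a boundary (76.9%) was 66.7% with a window of 500 bp, 83.3% with 2 kb and 89.4% with 5 kb. The share of coding genes marked (17.6%) was 14.7% with 500 bp, 23.2% with 5 kb, 10.5% with summits at or above the median score, 5.55% with scores of at least 5 and 20.2% without olfactory receptor genes. At 65 to 75 Mb (32.7%) it was 46.2% with 5 kb, 19.1% at or above the median score and 9.55% with scores of at least 5. In the olfactory receptor stretches (9.83%) it was 14.99% with 5 kb, 3.19% with scores of at least 5 and 0% in the clusters. Fewer summits lower these shares by construction. Neighbouring summits (30 at 10 kb) numbered 8 at 1 kb and 125 at 50 kb. The 65 to 75 Mb share was above that of the olfactory receptor stretches under each window and score minimum run. The list has no coverage, so what a missing summit means at this depth is unknown, and 1 list cannot show which summits recur.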
